A study of Homo sapiens with 10 samples.

Results

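Cytosolic ribosomal proteins are the protein parts of the ribosomes that translate nuclear-encoded mRNAs. A list of 60 Ensembl gene IDs, each given with its symbol, chose 60 of the 20289 genes whose ribosome footprints were measured. Of these, 31 belong to the small subunit (30 RPS genes such as RPS16, ENSG00000105193, and RPSA, ENSG00000168028) and 29 to the large subunit (for example RPL19, ENSG00000108298, and RPLP2, ENSG00000177600). The list uses family membership and no threshold on a measured value, and all 60 passed the filter for testing, a mean of at least 1 FPKM, which 13125 genes passed.

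The 10 libraries came from CFPAC-1 and PANC-1, established lines of human pancreatic ductal adenocarcinoma. CFPAC-1 was sampled in 2 libraries with 0.1% DMSO, the solvent, and 2 with 10 µM imidazole ketone erastin (IKE). PANC-1 was sampled in 2 libraries with 0.1% DMSO and 4 with 1 µM IKE. IKE is an erastin derivative that blocks cystine uptake and induces ferroptosis, an iron-dependent cell death. The series asked for regulators of ferroptosis in this cancer. Per the labels' protocols, libraries were made from cells left after dead cells and debris had been washed off, so the IKE groups hold survivors only. The treatment labels give 24 h, but the extract protocol has cells treated on several days in a row, and which of these holds is unknown. No dose was shared by both lines, so line and dose cannot be told apart in any comparison of their responses. The labels call the replicates biological and say no more of their origin. The p-values therefore set a difference against the spread between these libraries and reach no further. The labelled tumour cell type was not checked against markers, because the values are listed by ID and only the 60 members were paired with names.

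The value is FPKM, footprint fragments scaled to gene length and to the library's mapped fragments, so levels of different genes can be compared per length. A footprint level joins mRNA abundance and the ribosomes per mRNA. It is also relative: fewer footprints on a gene cannot be told apart from more footprints on the other genes. Nor can fewer cells of a type be told apart from less RNA per cell.

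The small subunit decodes mRNA and the large subunit joins amino acids. Growing cells devote much of their translation to making ribosomal proteins, and the proteins are needed in equal numbers, with the P-stalk proteins RPLP1 and RPLP2 as the known exception of several copies per ribosome. Their mRNAs typically begin with a cytosine followed by a run of pyrimidines, the terminal oligopyrimidine (TOP) tract, through which mTORC1 signalling controls their translation as a group.

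The starts of the genes on which the results turn are shown because a TOP tract is the one sequence feature this family is known to share. RefSeq starts on GRCh38.p14 were found by symbol for 47 of the 60 members. A tract was searched as C followed by at least 4 bases that are C or T, with its C from 5 bases before the annotated start to the 5th base after it. Each window below is 30 bases long in the 5′ to 3′ direction of the gene, 10 before the start and 20 from it on, and capitals mark the tract.
RPS16 at chr19:39435930-39435959, minus strand: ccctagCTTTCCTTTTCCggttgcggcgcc
RPLP2 at chr11:809957-809986, plus strand: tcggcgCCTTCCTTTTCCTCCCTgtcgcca
RPL19 at chr17:39200313-39200342, plus strand: agctctttCCTTTCgctgctgcggccgcag
RPS25 at chr11:119018324-119018353, minus strand: gcagcgCTTCCTTTTTgtccgacatcttga
RPS27 at chr1:153990752-153990781, plus strand: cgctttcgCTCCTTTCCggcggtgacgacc
RPLP1 at chr15:69452808-69452837, plus strand: ggcgcgagagCCCCTTTCCTCagctgccgc
RPS3 at chr11:75399508-75399537, plus strand: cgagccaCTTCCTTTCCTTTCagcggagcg
RPS6 at chr9:19380217-19380246, minus strand: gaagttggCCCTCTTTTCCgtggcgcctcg
RPL21 at chr13:27251548-27251577, plus strand: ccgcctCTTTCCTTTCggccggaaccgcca
RPS19 at chr19:41860245-41860274, plus strand: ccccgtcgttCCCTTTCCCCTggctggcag

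All 10 windows hold a tract, and among the 47 matched members 38 (80.9%) hold one at some annotated start. Of all 27305 genes listed there by RefSeq, 6447 (23.6%) hold one. On the opposite strand the same search found 5 members and 20.4% of genes. The longest tract of a member ran over 5 to 21 bases, with a median of 11. Marks and lengths begin at a C within the searched positions. Pyrimidines farther upstream, as in the RPL19 window shown, are therefore left out. RPL19 has a second annotated start upstream whose window also matched, and RPS19 has a second one downstream that did. RPL15, RPL27, RPL4, RPL6, RPL9, RPS15, RPS26, RPS29 and RPS4X had no match in the searched positions, which says only that these letters are not there. The genes lie on 20 chromosomes, 10 of them on chromosome 19. RefSeq lists between 4 and 137 pseudogenes for each of the 60 members (median 15.5), counted by symbol. Their sequences were not compared. Copies alike enough could share footprint fragments, so the level of a single member is uncertain.

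Relative depth, a rough estimate read from the steps of low values, was 0.915 to 1.18 times that of CFPAC-1 DMSO replicate 1 in the other CFPAC-1 libraries. For PANC-1 alone, several multiples of the estimate were tried on 168 of 3169 low genes. The smallest multiple that largely kept whole-read steps was taken. Relative depth was then 0.508 and 0.328 in the PANC-1 DMSO libraries. In PANC-1 IKE replicates 1 to 4 it was 0.878, 0.239, 0.501 and 0.211. PANC-1 IKE replicates 2 and 4 thus had the lowest depth, with PANC-1 DMSO replicate 2 next. PANC-1 IKE replicate 4 also stood apart by its composition, since its 10 most abundant genes held 23.1% of summed FPKM. These 10-gene shares were 16.2% in IKE replicate 2 and 8.51% to 12.2% in the other PANC-1 libraries. Replicates agreed less in PANC-1: the median residual SD of a member's log2 level was 0.131 for CFPAC-1 against 0.406 for PANC-1, with PANC-1 the larger for 54 of 60 members. Over all genes tested the medians were 0.180 and 0.481.

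The share of summed FPKM held by the ribosomal protein genes separated the lines. FPKM is scaled to gene length, so this is not their share of footprint fragments. They held 3.32% and 3.22% of summed FPKM in CFPAC-1 DMSO replicates 1 and 2, and 2.21% and 2.58% in the IKE replicates. In PANC-1 they held 8.23% and 7.52% with DMSO, and 9.17%, 7.67%, 9.30% and 6.43% in IKE replicates 1 to 4. All 6 PANC-1 libraries lay above all 4 CFPAC-1 libraries, the CFPAC-1 IKE libraries lay below the DMSO libraries, and the PANC-1 groups overlapped. With the 10 most abundant genes of each library taken out of both sums, the PANC-1 IKE libraries held 7.77% to 8.84% and the DMSO libraries 7.91% and 6.66%. No test was made of these shares.

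**Figure D1:**
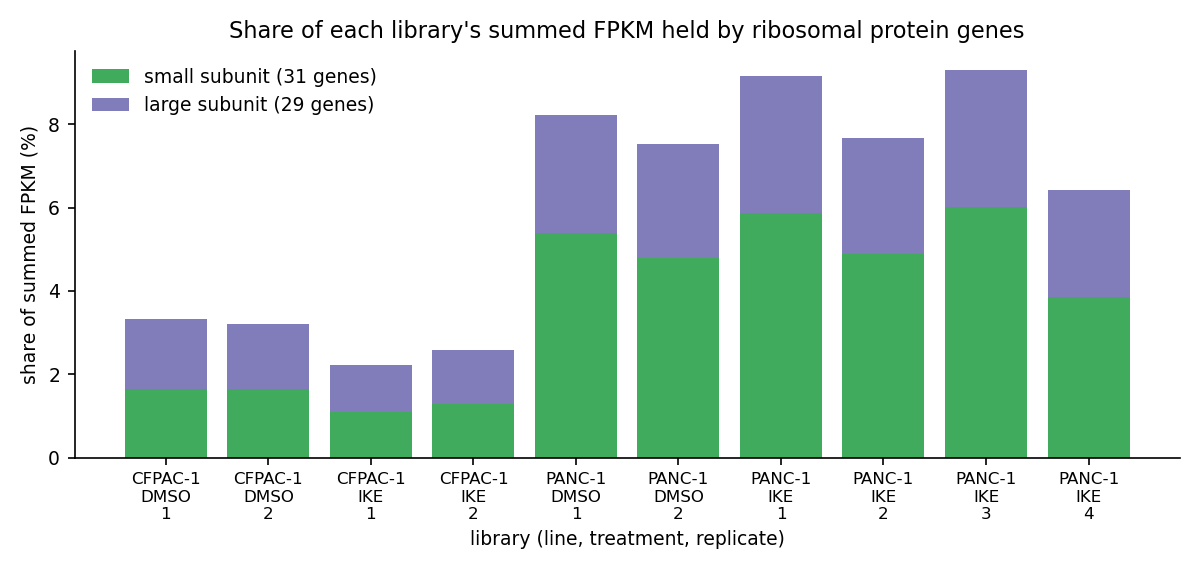
Share of each library's summed FPKM (vertical axis, percent) held by the small subunit genes (green) and the large subunit genes (violet), by library (horizontal axis). The CFPAC-1 bars reach 2.21% to 3.32% with about equal parts, and the PANC-1 bars reach 6.43% to 9.30% with the small subunit as the larger part.

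The subunits took equal parts in CFPAC-1 and unequal parts in PANC-1. Small subunit genes held 1.65% ± 0.0007 (SD, n = 2) and large subunit genes 1.62% ± 0.07 of summed FPKM in CFPAC-1 DMSO. In PANC-1 DMSO the values were 5.09% ± 0.44 and 2.78% ± 0.06 (SD, n = 2). In PANC-1 IKE they were 5.16% ± 1.00 and 2.98% ± 0.36 (SD, n = 4). Without RPS16, the highest member there, the family as a whole held 7.24% and 6.74% in the PANC-1 DMSO libraries in place of 8.23% and 7.52%.

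Within a library the levels of members ranged widely although the proteins are needed in equal numbers. The highest member stood 23.9 to 50.3 times above the lowest. The median member was at 520 and 518 FPKM in CFPAC-1 DMSO, 350 and 392 FPKM in CFPAC-1 IKE, and 1235 and 1114 FPKM in PANC-1 DMSO. It was at 1405, 1074, 1477 and 960 FPKM in PANC-1 IKE replicates 1 to 4. Over the 10 libraries, of which 6 are PANC-1, RPS16, whose tail reaches the peptidyl-tRNA site, had the highest mean, 6273 FPKM. RPS24 with 4602 FPKM and RPS3, a protein of the mRNA entry channel, with 4263 FPKM came next. The means hide a difference between the lines: RPS16 ranked 49th and 51st in the CFPAC-1 groups and first in both PANC-1 groups, while RPL19 ranked first in both CFPAC-1 groups and 15th and 11th in PANC-1 DMSO and IKE. The lowest means were those of RPS12 with 304 FPKM and RPSA with 333 FPKM.

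**Figure D2:**
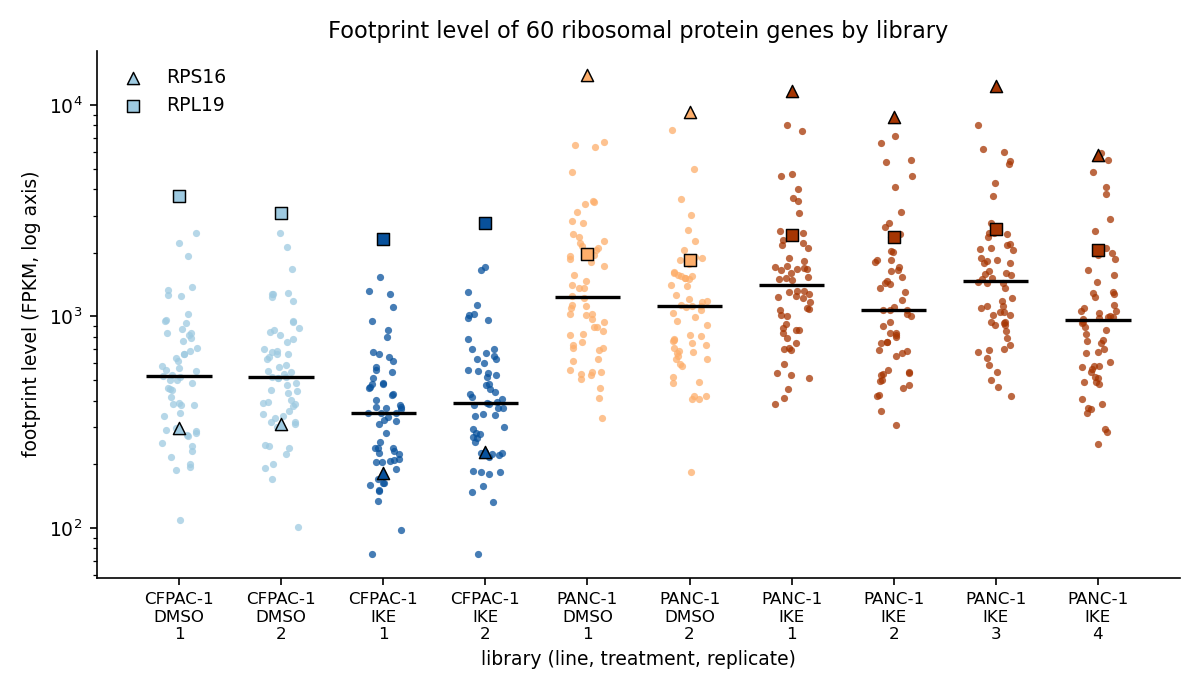
Footprint level (FPKM, log axis) of the 60 ribosomal protein genes in each of the 10 libraries. Points are genes, black lines are medians over the 60 genes, triangles mark RPS16 and squares mark RPL19. The medians lie at 350 to 520 FPKM in CFPAC-1 and at 960 to 1477 FPKM in PANC-1, and RPL19 is the highest gene in the 4 CFPAC-1 libraries and RPS16 in 5 of the 6 PANC-1 libraries.

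The order of members was kept under IKE within a line and was looser between lines. As a description across the 60 genes, which share libraries and depth, log2 mean levels of DMSO and IKE correlated at 0.99 (Pearson) in CFPAC-1 and 0.95 in PANC-1. Between the DMSO groups of the lines the correlation was 0.647, with a Spearman correlation of 0.694.

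At baseline, the DMSO libraries of the lines were compared. Ribosomal protein genes were higher in PANC-1 as a family: 56 of 60 had a log2 difference above 0, where 48.7% of all genes tested did, and the median was 1.20 (2.30-fold), against -0.03 over all genes. Called at an adjusted p under 0.05 by limma, adjusted over all 13125 genes, were 39 members higher, where 15.1% of all genes were, and 1 member lower, where 18.5% of all genes were. The DMSO groups did not overlap, with PANC-1 higher, for 54 of 60 members, against 33.8% of all genes. The tests of both IKE effects used the same DMSO libraries, so the comparisons below are not independent of this one. All log2 values are of FPKM + 1 and are given with standard errors.

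RPS16 differed most. CFPAC-1 had 296 and 310 FPKM in its DMSO libraries and 181 and 228 FPKM in its IKE libraries. PANC-1 had 13900 and 9228 FPKM in its DMSO libraries, and its IKE replicates 1 to 4 had 11630, 8814, 12326 and 5816 FPKM. The lines lay far apart in every library. The log2 difference was 5.22 ± 0.39 (37.3-fold; limma adjusted p = 6.6e-06). With each library scaled to the family's median it was 4.05. RefSeq lists 10 pseudogenes of RPS16, whose gene lies at chr19:39433137-39435949.

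RPLP2, one of the acidic P-stalk proteins that recruit elongation factors, came second. It was at 486 and 552 FPKM in CFPAC-1 DMSO and at 6298 and 3001 FPKM in PANC-1 DMSO. The log2 difference was 3.07 ± 0.35 (8.38-fold; limma adjusted p = 8.9e-05). Its partners differed less: RPLP0, the base of the stalk, by 1.17 ± 0.29 (adjusted p = 0.0117) and RPLP1 by 0.89 ± 0.39 (adjusted p = 0.104, not called).

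RPS18, a protein of the small subunit's head, was at 635 and 698 FPKM in CFPAC-1 DMSO and at 3529 and 2574 FPKM in PANC-1 DMSO, a difference of 2.18 ± 0.27 (limma adjusted p = 1.59e-04). RPS28, at the mRNA exit, was at 217 and 247 FPKM against 1358 and 676 FPKM, a difference of 2.05 ± 0.37 (adjusted p = 0.00197). RPS15A differed by 1.95 ± 0.41 and RPS15 by 1.91 ± 0.29 (limma adjusted p = 0.00484 and 6.51e-04). RPS2, which lines the mRNA entry, differed by 1.75 ± 0.26 (adjusted p = 5.77e-04). In the means of the DMSO groups, 39 members were at least 2 times and 4 at least 4 times as high in PANC-1.

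RPL19, a large subunit protein that takes part in a bridge between the subunits, went the other way. It was at 3707 and 3069 FPKM in CFPAC-1 DMSO, the highest member there, and at 1972 and 1846 FPKM in PANC-1 DMSO. The difference of -0.82 ± 0.26 was called (limma adjusted p = 0.0353), the single member lower in PANC-1. That call held in 11 of 22 alternative analyses and in 2 of the 10 that left out a library. In 3 more members the difference lay below 0 without a call: RPL5 (-0.39 ± 0.44), RPL23 (-0.19 ± 0.33) and RPL9 (-0.01 ± 0.30). RPL5 and RPL11 enter the large subunit together with its smallest rRNA, and RPL5, RPL11 and RPL23 can bind the p53 inhibitor MDM2. RPL11 did not share RPL5's value: at 665 and 666 FPKM against 2156 and 1557 FPKM it was higher in PANC-1 by 1.46 ± 0.39 (adjusted p = 0.0157).

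**Figure D3:**
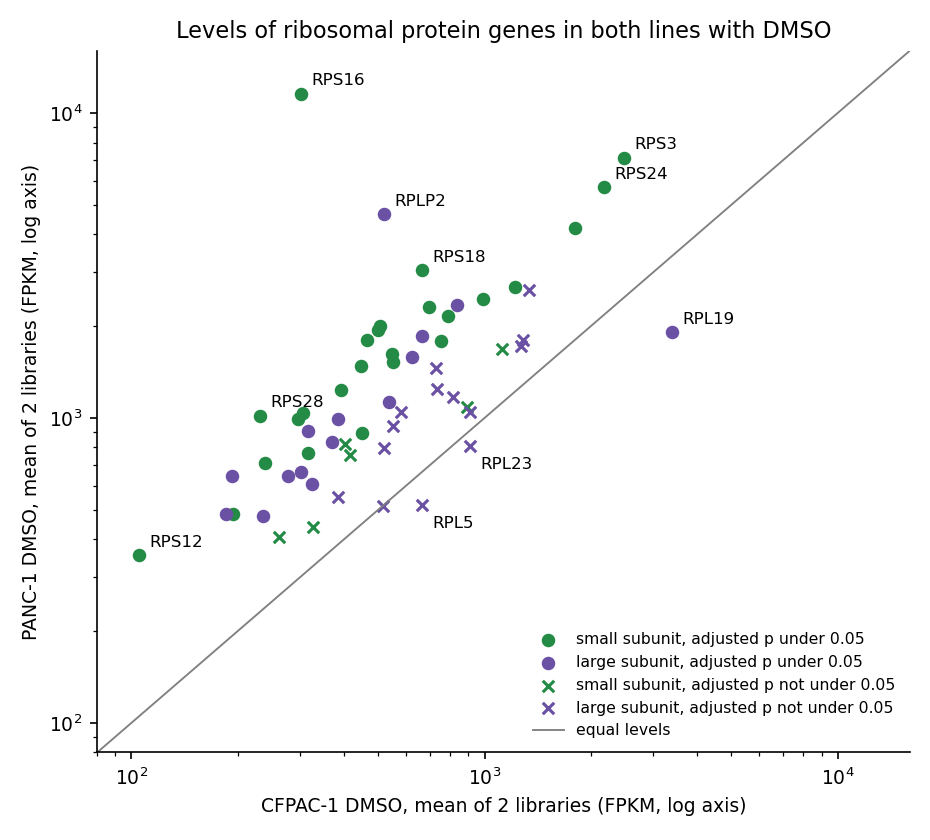
Mean level in PANC-1 DMSO (vertical axis) against CFPAC-1 DMSO (horizontal axis), FPKM on log axes, 2 libraries each, for the 60 genes. Circles have an adjusted p under 0.05, crosses do not, green is the small and violet the large subunit, and the line marks equal levels. RPS16 and RPLP2 stand farthest above the line, and RPL19 is the one circle below it.

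The subunits differed in how many members were called. In the small subunit 25 of 31 members were called higher and none lower, with all 31 above 0, a median of 1.46 (2.74-fold) and a range from 0.19 (RPS29) to 5.22. In the large subunit 14 of 29 were called higher and 1 lower, with a median of 0.90 (1.86-fold). The difference between the subunits was not tested.

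Other called members of the small subunit include RPS3, RPS4X, RPS7, RPS10, RPS12, RPS13, RPS14, RPS19, RPS20, RPS21, RPS24, RPS25, RPS26, RPS27 and RPS27A, with differences from 0.97 (RPS20) to 1.70 (RPS25). Among them are RPS10 and RPS20, which are ubiquitinated on collided ribosomes, with 1.58 ± 0.34 and 0.97 ± 0.28, and RPS27A, which is made as a fusion with ubiquitin, with 1.13 ± 0.39. The call of RPS27A, like that of RPL19, held in 11 of 22 alternatives and in 2 of the 10 that left out a library. RPS26, which contacts mRNA upstream of the start codon, differed by 1.42 ± 0.34. Not called were RPS6 (0.43 ± 0.28), the target of S6 kinases, RPSA (0.61 ± 0.34), which is also described as a laminin receptor, RPS3A, RPS9, RPS23 and RPS29.

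Called in the large subunit beside RPLP2, RPLP0, RPL11 and RPL19 were, among others, RPL3, RPL7A, RPL10, RPL12, RPL13A, RPL14, RPL21, RPL22, RPL23A and RPL26, with differences from 0.90 (RPL3) to 1.73 (RPL26). RPL3, which lies next to the catalytic centre, was at 349 and 301 FPKM against 532 and 687 FPKM. RPL10, which joins late as the large subunit matures, differed by 1.35 ± 0.33, and RPL22, which also binds viral and cellular RNAs, by 1.46 ± 0.29.

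Over all 10 libraries, DMSO and IKE together, every PANC-1 library was above every CFPAC-1 library for 49 of 60 members, against 19.4% of all genes tested. The lines overlapped for RPS3A, RPS29, RPL4, RPL5, RPL6, RPL9, RPL15, RPL18, RPL19, RPL23 and RPL27. The number of calls depended on single DMSO libraries: 40 members were called in all, 16 without CFPAC-1 DMSO replicate 1, 17 without CFPAC-1 DMSO replicate 2 and 23 without PANC-1 DMSO replicate 1. The medians in these were 1.15, 1.29 and 1.07, and 1.36 without PANC-1 DMSO replicate 2, which left 35 calls. RPS16, RPLP2, RPS18 and RPS15A were called in all 22 alternatives.

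In CFPAC-1, 10 µM IKE was compared with DMSO. The estimate lay below 0 for all 60 ribosomal protein genes, where 51.6% of all genes tested lay below 0. The median log2 fold change was -0.49 (0.711-fold) against -0.01 over all genes, and the members lay close together, from -0.85 (RPL21) to -0.14 (RPL23A), with an SD over genes of 0.14 against 0.384 over all genes. Both IKE libraries lay below both DMSO libraries for 58 of 60 members, the exceptions being RPS3A and RPL23A, where 22.3% of all genes did so. The 60 genes were read from the same 4 libraries and are not independent.

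No member passed the test by itself. At an adjusted p under 0.05, limma called 0 of 60 members and 0.00762% of all genes, and at an unadjusted p under 0.05 there were 5 members lower, 8.33%, against 0.571% of all genes. This model shares 1 spread per gene between the lines, although the spread of members was larger in PANC-1. With the CFPAC-1 libraries fitted alone, 48 of 60 members had an unadjusted p under 0.05 and were lower, against 6.1% of all genes, and the smallest adjusted p of a member was 0.327.

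RPL21, on the outer face of the large subunit, had the lowest value. Its DMSO libraries had 292 and 339 FPKM and its IKE libraries 163 and 187 FPKM, a log2 fold change of -0.85 ± 0.38 (limma adjusted p = 1). RefSeq lists 137 pseudogenes of RPL21, the most of any member. RPS19, the gene most often mutated in the inherited anaemia named after Diamond and Blackfan, had 460 and 436 FPKM in the DMSO libraries and 232 and 278 FPKM with IKE. That is a log2 fold change of -0.82 ± 0.31 (limma adjusted p = 1). For both genes the IKE libraries lay well below the DMSO libraries. Over the 22 alternatives the adjusted p was at least 0.0786 for RPL21 and at least 0.0573 for RPS19.

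RPL5 had 667 and 664 FPKM in the DMSO libraries and 324 and 478 FPKM with IKE. That is a log2 fold change of -0.76 ± 0.44. RPS29, a small zinc-binding protein, was at 836 and 953 FPKM against 478 and 629 FPKM, a log2 fold change of -0.70 ± 0.39. Neither had an unadjusted p under 0.05. The 5 members that did were RPL21, RPS19, RPL13A (-0.62 ± 0.25), RPL3 (-0.60 ± 0.25) and RPS20 (-0.66 ± 0.28). IKE replicate 1 was the lower of the IKE libraries for 49 of 60 members.

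At the other end stood RPL23A, which lines the exit of the peptide tunnel, with 201 and 170 FPKM against 211 and 132 FPKM (-0.14 ± 0.29). Its IKE libraries lay on both sides of the DMSO libraries, and its value turned to 0.19 without IKE replicate 2. RPL10A, the protein of the mobile stalk beside the tRNA exit, had -0.27 ± 0.28, RPS9, at the mRNA entry, -0.27 ± 0.32 and RPL27 -0.28 ± 0.35. Scaling each library to the family's median moves every member up by about the family's shift, so members above the family's median then lie above 0 by construction. On that scale RPL23A was at 0.35 and RPL21 at -0.36.

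The groups within the family lay close to each other. The small subunit had a median log2 fold change of -0.52 over 31 members and the large subunit -0.48 over 29. The P-stalk proteins RPLP0, RPLP1 and RPLP2 had -0.54 ± 0.29, -0.51 ± 0.39 and -0.58 ± 0.35. Over RPL5, RPL11, RPL23, RPS7, RPL26 and RPS27A, which have been tied to p53 control, the median was -0.54, from -0.76 (RPL5) to -0.40 (RPS7). RPS6 had 297 and 358 FPKM in the DMSO libraries and 190 and 265 FPKM in the IKE libraries. RPL19, the most abundant member in this line, was at 3707 and 3069 FPKM against 2323 and 2772 FPKM.

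**Figure D4:**
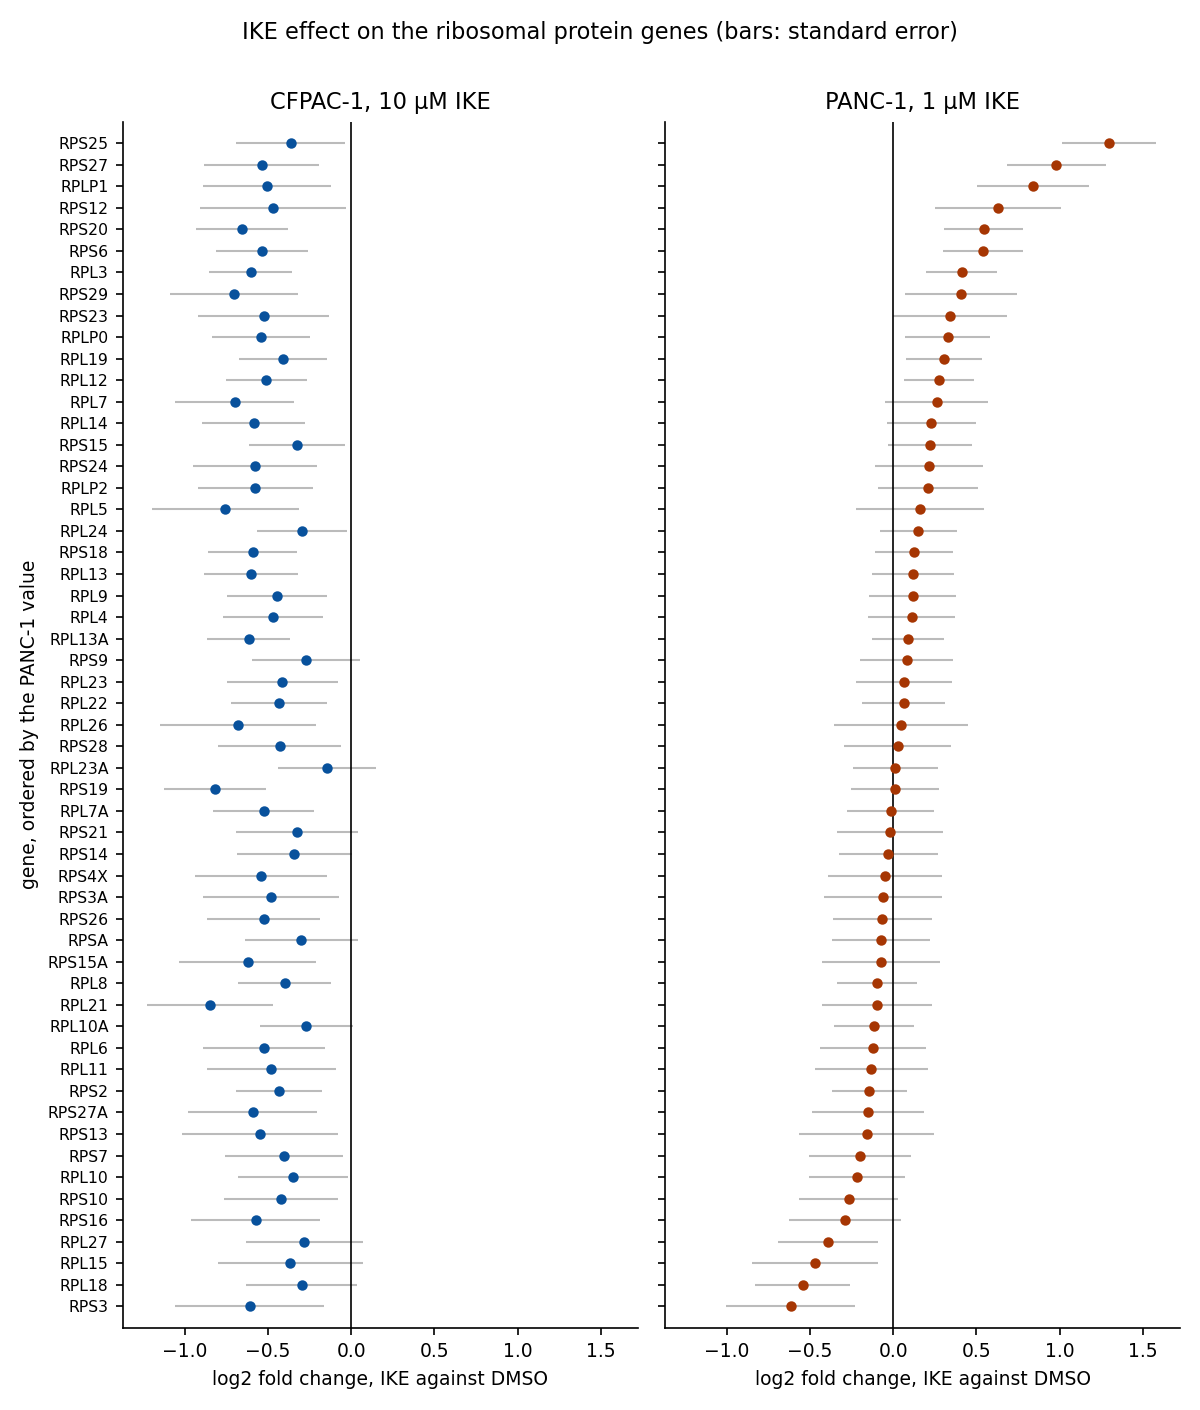
Log2 fold change of IKE against DMSO (horizontal axes) for 55 of the 60 genes (rows, ordered by the PANC-1 value) in CFPAC-1 (left) and PANC-1 (right). Points are estimates and bars are standard errors. All 55 points lie below 0 in CFPAC-1, between -0.85 and -0.14, while in PANC-1 31 lie above and 24 below 0, between -0.62 and 1.30.

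In PANC-1, 1 µM IKE was compared with DMSO. The family was split: 32 members were above 0 and 28 below, 46.7% against 51.1% of all genes below 0, with a median log2 fold change of 0.02 against -0.02 over all genes. The members spread up to 1.30 (RPS25), with an SD over genes of 0.356 against 0.657 over all genes. At an adjusted p under 0.05 limma called 0 of 60 members and 0.0152% of all genes. At an unadjusted p under 0.05 there were 5 members higher (RPS25, RPS27, RPLP1, RPS20 and RPS6), against 8.01% of all genes. The 5 make 8.33% of members, near that background. There was 1 member lower, against 9.55% of all genes. The groups did not overlap for 6 members with IKE higher (RPS6, RPS20, RPS25, RPS27, RPL3 and RPL19), against 10.2% of all genes, and for 1 with IKE lower, against 12.2%.

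RPS25, a small subunit protein needed for initiation at several viral internal ribosome entry sites, had the largest value. The DMSO libraries had 2772 and 1854 FPKM, against 3988, 6594, 6206 and 5914 FPKM in IKE replicates 1 to 4. All 4 IKE libraries lay above both DMSO libraries. The log2 fold change was 1.30 ± 0.28 (2.46-fold; limma adjusted p = 0.118). In the limma fit of PANC-1 alone the adjusted p was 0.438, and without IKE replicates 2 and 4 the value was 1.13. Relative to the family's median in the same library, RPS25 was at 1.17 and 0.73 with DMSO and at 1.51, 2.62, 2.07 and 2.62 with IKE on the log2 scale.

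RPS27, a zinc-finger protein of the small subunit, had 1249 and 736 FPKM in the DMSO libraries, and IKE replicates 1 to 4 had 1515, 2362, 1847 and 1944 FPKM, again without overlap. Its log2 fold change was 0.98 ± 0.30 (limma adjusted p = 0.173), and 0.80 without IKE replicates 2 and 4. RPLP1 had 3477 and 1771 FPKM in the DMSO libraries, and IKE replicates 1 to 4 had 3088, 5364, 4252 and 5517 FPKM, where replicate 1 lay below DMSO replicate 1. Its log2 fold change was 0.84 ± 0.34 (limma adjusted p = 0.24). It was 0.35 without DMSO replicate 2, 1.33 without DMSO replicate 1, and 0.55 without IKE replicates 2 and 4. The other P-stalk proteins had 0.33 ± 0.26 (RPLP0) and 0.21 ± 0.30 (RPLP2).

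RPS12, a protein of the small subunit's beak, had 527 and 183 FPKM in the DMSO libraries, and IKE replicates 1 to 4 had 387, 672, 422 and 491 FPKM. The DMSO libraries lay on both sides of 3 of the IKE libraries, and the log2 fold change of 0.63 ± 0.38 became -0.13 without DMSO replicate 2. RPS6 had 459 and 420 FPKM in the DMSO libraries and 700, 501, 698 and 682 FPKM with IKE. That is a log2 fold change of 0.54 ± 0.24 (limma adjusted p = 0.278). RPS20 had 0.54 ± 0.24 and RPL3 0.41 ± 0.22.

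Among members with values below 0, RPS3 had 6687 and 7592 FPKM in the DMSO libraries, and IKE replicates 1 to 4 had 7545, 4110, 5960 and 2532 FPKM, a log2 fold change of -0.62 ± 0.39 (limma adjusted p = 0.438). Its IKE replicate 1 reached the DMSO level and replicates 2 and 4 were lowest, and without those the value was -0.09. RPL18 had -0.54 ± 0.29 and RPL15 -0.47 ± 0.38, and the value of RPL15 became 0.10 without IKE replicates 2 and 4.

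**Figure D5:**
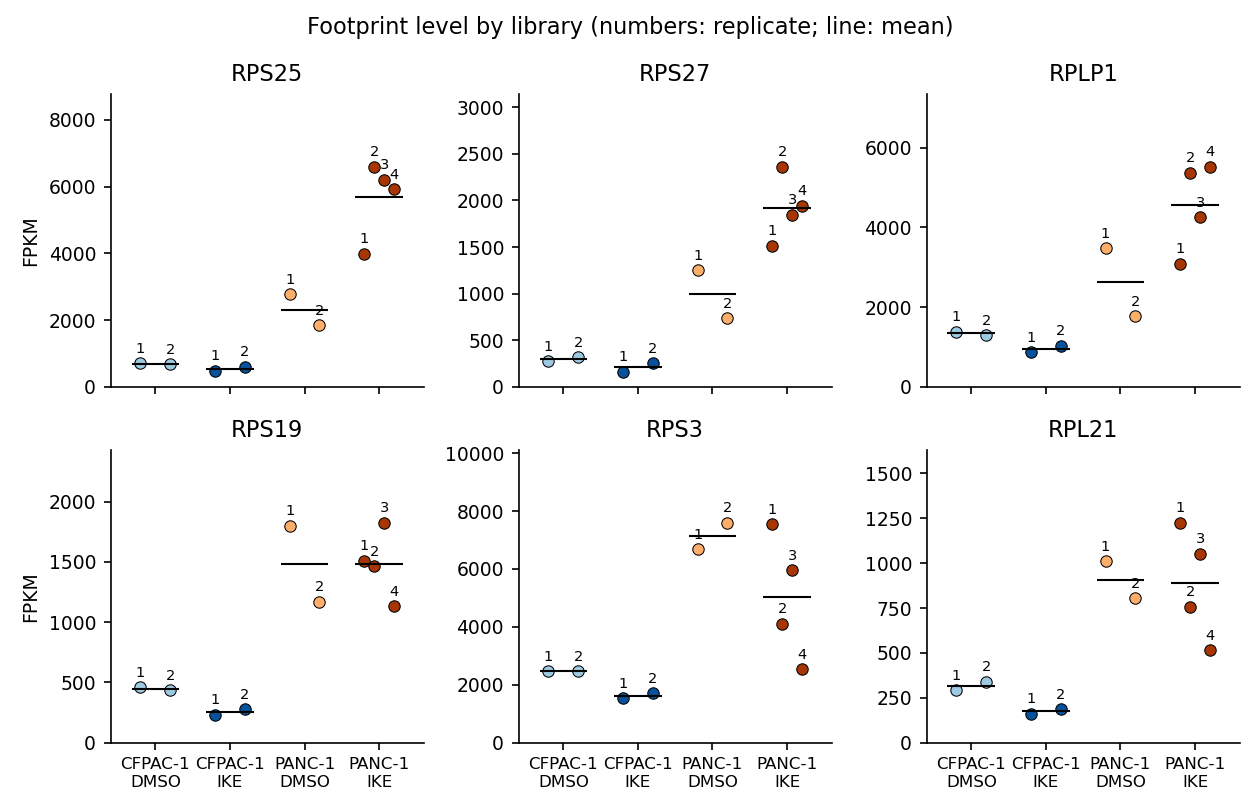
Footprint level (FPKM, vertical axes from 0) of RPS25, RPS27, RPLP1, RPS19, RPS3 and RPL21 in each library. Points are libraries with their replicate number, and horizontal lines are means of the groups (2 libraries, or 4 for PANC-1 IKE). In PANC-1 the IKE libraries of RPS25 and RPS27 lie above both DMSO libraries, while RPS19 and RPL21 lie lower with IKE in CFPAC-1 and overlap in PANC-1.

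The balance of directions in PANC-1 rested on single libraries. IKE replicate 4 was the lowest of the 6 PANC-1 libraries for 35 of 60 members, and DMSO replicate 2 for 20. Without IKE replicate 4 there were 11 members below 0 in place of 28, and without IKE replicates 2 and 4, the shallowest libraries, there were 8, with a median of 0.27. Quantile normalization left 14 below 0 and weights for the libraries left 9. Depth and the share of the 10 most abundant genes moved with these libraries, as given above, and their part in the result was not tested.

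The difference of the IKE effects, PANC-1 minus CFPAC-1, tested whether the responses differed. It was above 0 for 55 of 60 members, where 49.3% of all genes were, with a median of 0.50 against -0.01 over all genes. At an adjusted p under 0.05 limma called 0 of 60 members and 0.0305% of all genes. At an unadjusted p under 0.05 there were 8 members (13.3%), all above 0, where 3.65% of all genes were. They were RPS25, RPS27, RPS20, RPL3, RPS6, RPLP1, RPL12 and RPLP0. Without PANC-1 DMSO replicate 1 the median was 0.77, without PANC-1 DMSO replicate 2 it was 0.38 with 50 members above 0, and without PANC-1 IKE replicates 2 and 4 it was 0.76.

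RPS25 had the largest difference, 1.66 ± 0.43 (limma adjusted p = 0.522). In CFPAC-1 its DMSO libraries had 710 and 682 FPKM and its IKE libraries 486 and 602 FPKM. RPS27 had 1.52 ± 0.46, RPLP1 1.35 ± 0.51 and RPS20 1.20 ± 0.37, with limma adjusted p of 0.537, 0.557 and 0.537. Differences below 0 were found for RPL18 (-0.25 ± 0.44), RPL27 (-0.11 ± 0.46), RPL15 (-0.10 ± 0.58) and RPS3 (-0.01 ± 0.60). For RPS3, with -0.61 in CFPAC-1 and -0.62 in PANC-1, the 95% interval of the difference ran from -1.33 to 1.32, wide enough to hold large differences in either direction. As a description across the 60 genes, the IKE log2 fold changes of the lines, which share no libraries, correlated at -0.167 (Pearson) and -0.264 (Spearman).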

How the data were processed

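Ribosome footprints of 10 libraries were deposited as FPKM by the authors, per the file headers, 1 column per library and 0 columns of no sample. Per the labels' protocols, ribosomes were arrested with cycloheximide, lysates digested with RNase I and rRNA removed. Tools in the submitters' processing notes are DESeq2, RSEM, STAR, fastp and Bowtie2 2.2.8, and the build is GRCh38, all without role or order. For annotation and strand setting the sources used here give nothing.

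A count test had been planned for counts. The values are FPKM and whole reads were not recovered, so limma 3.58.1 in R 4.3.3 (lmFit, eBayes with trend) was fitted to log2(FPKM + 1) of the 13125 genes averaging 1 FPKM or more, 4 groups in 1 model (6 residual degrees of freedom), with Benjamini-Hochberg adjustment. The fit was tested on simulated data with changes far larger than any member's IKE effect, so that test does not show its power for such effects. Members and lists were chosen with earlier results of these data known. Named were all called members, the 4 highest and 4 lowest values of each comparison, the 3 highest and 3 lowest levels, and members of known role; other members with an unadjusted p under 0.05, without overlap or with a shift under an alternative were named after their values were seen. Names are those given with the member IDs. A few members count in every summary over the family but are not reported here by name. Lists and markers of other genes could not be matched to IDs and were not tested. Alternatives were the pseudocount, filter, scaling, library weights, separate fits, a replicate block, left-out libraries and, for the shares, the denominator.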

Additional observations from a re-analysis of the deposited data

Results flagged for a closer look

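RPS6 in PANC-1 IKE replicate 2 lay far from the other IKE libraries of its group, at 501 FPKM against 700, 698 and 682 FPKM in replicates 1, 3 and 4, and closer to the 459 and 420 FPKM of the DMSO libraries. This check was run on 61 values and singled out this 1, and chance singles out about 1 in 20.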

How the results depend on the processing

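Over 22 alternatives the CFPAC-1 median stayed below 0, but many of them could not move it. Filters, library weights, separate fits, the replicate block and left-out PANC-1 libraries kept the CFPAC-1 group means and gave -0.49 again. Leaving out single CFPAC-1 libraries gave -0.61 to -0.39, with 59 to 60 members below 0. No member was called for either IKE effect or their difference under any alternative. Scaling to the family's median, which removes the family's shift by construction, gave medians of -0.005 (CFPAC-1), -0.037 (difference) and 0.029 (baseline) and 17 baseline calls. It changes the sign of any member that lies on the same side of 0 as that shift and nearer to 0, which sets none apart: of the members followed here, RPL23A (0.35), RPL10A (0.22), RPS9 (0.22) and RPL27 (0.21) in CFPAC-1 and RPS20 (-0.20), RPS27A (-0.046), RPL3 (-0.28), RPL12 (-0.17), RPL13A (-0.10) and RPLP0 (-0.003) at baseline did so. Members below 0 in PANC-1 numbered 14 with quantile normalization, 9 with library weights, 8 without IKE replicates 2 and 4 together, and 11 to 36 as single libraries were left out. Without replicates 2 and 4 the medians were 0.27 (PANC-1) and 0.76 (difference), and RPL15 turned to 0.10 in PANC-1. Leaving out single libraries gave medians of -0.12 to 0.20 in PANC-1, 0.38 to 0.77 for the difference and 1.07 to 1.36 at baseline, with 16 to 45 baseline calls. Causes were not tested.

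Single genes near 0 changed sign. For the difference, RPL15 was 0.007 (quantile), 0.23 (weights) and 0.47 (without IKE replicates 2 and 4), RPL27 0.035 (weights) and 0.12, and RPL18 0.091 (both without IKE replicates 2 and 4). Left-out libraries turned RPL23A (-0.48 to 0.19, CFPAC-1), RPS12 (-0.13 to 1.39, PANC-1), RPL15 (-0.37 to 0.16) and RPL27 (-0.36 to 0.14) for the difference, and RPL9 (-0.022 to 0.009) and RPL23 (-0.48 to 0.10) at baseline.

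Deviations of same-numbered libraries correlated at 0.05 in CFPAC-1 and -0.21 in PANC-1 over all genes, and at 0.33 and -0.77 over the members. Each line gives a single contrast of replicates per treatment, so these values cannot settle whether replicate numbers pair the samples. On replicates 1 and 2 alone, 34 members were called at baseline with the replicate block and 44 without it, and none for the IKE effects in either fit. The block cannot move an estimate in this balanced set: on these libraries 18 members lay below 0 in PANC-1 and the difference of RPL27 was 0.14.

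The shares moved with their construction, to 3.59% (CFPAC-1 DMSO) and 7.29% (PANC-1 DMSO) without the 10 most abundant genes and to 3.00% and 6.99% without the highest member. Absolute depth is unknown, so no counting error is given.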

Other observations

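The members without a TOP tract at the searched positions overlapped between the lines more often in number. Of these 9 genes, 6 (RPL4, RPL6, RPL9, RPL15, RPL27 and RPS29) had PANC-1 and CFPAC-1 levels that overlapped over the 10 libraries, against 3 of the 38 with a tract (RPS3A, RPL18 and RPL19). RPL5 and RPL23 also overlapped, but no start was found for them, so they are in neither count. All of these overlapping genes but RPS29 and RPS3A belong to the large subunit. Its median difference between the DMSO groups was 0.90, against 1.46 in the small subunit. Tract and subunit were not told apart. The median log2 difference between the DMSO groups was 0.77 (from -0.01 to 1.91) without and 1.28 (from -0.82 to 5.22) with a tract. The median IKE effect in CFPAC-1 was -0.47 without and -0.52 with a tract. The split was looked at after the values were seen and was not tested. An annotated start can lie off the start used in these cells: 7 of the 9 genes hold such a run between the 6th and the 50th base after an annotated start, and 21 of the 38 hold one there as well.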
